A study of Macaca mulatta with 6 samples.

Results

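Spliceosomal small nuclear RNAs (snRNAs), the U7 snRNA and the small Cajal body RNAs (scaRNAs) that guide their modification were measured in the testis of juvenile rhesus monkeys (Macaca mulatta) given gonadotropins or vehicle. The genes described were chosen by their counts: of the genes annotated as snRNA or scaRNA in the small RNA count table, those with at least 30 reads summed over the 6 libraries were kept. These were 47 of 536 such genes, namely 33 of 508 snRNA genes and 14 of 28 scaRNA genes, in a table of 3083 small RNA genes. The 3 vehicle animals were numbers 7, 9 and 11, aged 24, 14 and 15 months. The 3 gonadotropin animals, which received follicle-stimulating hormone (FSH) and luteinizing hormone (LH) in pulses, were numbers 8, 10 and 12, aged 22, 14 and 15 months. All were wild type, both infusions lasted 48 h, and 1 library per animal was made from total RNA of fragments of the right testis. Libraries are named below by group and animal number, and p-values set a group difference against the spread between these animals.

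Introns of nuclear messenger RNAs are removed by the spliceosome, in which U1 pairs with the 5' splice site, U2 with the branch point, U4 delivers U6 in an inactive pairing, U6 forms the catalytic centre with U2, and U5 holds the exons. A minor spliceosome removes a rare class of introns and uses U11, U12, U4atac and U6atac with the shared U5. U7 directs 3' end cleavage of replication-dependent histone messenger RNAs. scaRNAs reside in Cajal bodies, where they direct 2'-O-methylation and pseudouridylation of snRNAs. Primate genomes carry many diverged copies of snRNA genes, and those with the same name in the table are separate annotated copies.

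Total counts ran from 2146412 in gonadotropin 8 to 3170784 in gonadotropin 10, and miRNA genes took 91.9% to 96.9% of each library. The member snRNAs took 0.167% of counts in vehicle 7 and 0.410% in vehicle 9, the lowest and the highest of the 6 libraries. Vehicle 7 also stood apart across all 717 genes with enough reads for a test, at 20.39 on the first principal component (36.98% of the variance), against -15.51 to 4.88 in the other libraries. Gonadotropin 10 stood apart on the second component (30.55%), at 21.82 against -7.84 to -1.95. The TMM scaling factor of vehicle 7 was 0.784, against 0.987 to 1.16 in the other libraries. Of 6 testis marker miRNAs in the lists used here, 2 (mir-509 and mir-514) were in the table, at a summed 4317 to 8106 CPM (reads per 1000000 counts) in vehicle and 5024 to 12637 CPM in gonadotropin libraries. Markers of other cells were all in the table, but the liver marker had only 0.682 to 1.31 CPM in any library, under the read filter of 3.78 CPM. Among the vehicle libraries, those of endothelium, muscle, neural cells and duct epithelium were highest in vehicle 7, whereas the testis markers (4317 CPM) were lowest there. Muscle markers differed little, at 41.9 to 48.4 CPM in vehicle and 36.9 to 53.1 CPM in gonadotropin libraries. Blood markers were also lowest in vehicle 7 (2837 CPM), but vehicle 9 lay close to it at 2970 CPM. They reached up to 5749 CPM in vehicle libraries and were at 4570 to 4939 CPM in gonadotropin libraries. Neural markers summed to 83.9 to 242 CPM in vehicle and 118 to 155 CPM in gonadotropin libraries. The part of cell content, and of vehicle 7 and its markers, in the results below was not tested. In whole testis, fewer cells of a type and less RNA per cell cannot be told apart.

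Reads were spread very unevenly over the snRNA types. U2 held 34600 reads in 10 member genes, or 19726 with identical copies counted once, and U5 held 11039 in 6. U4 followed with 925 reads in 5 genes, or 683 with identical copies counted once. U1 was represented by 90 reads in 2 of its 77 annotated genes, and U6 by 74 reads in 2 of 259, with no single U6 gene above 38 reads. Among minor types, U4atac had 288 reads in 2 genes, U12 189 in 2, U11 137 in 1 and U6atac 109 in 2, while U7 had 64 in 1. The 14 scaRNA genes held 10110 reads. The genes nearest the threshold on the inside were a U6 gene with 36 reads, the chromosome 1 copy of SCARNA24 with 38 and another U6 gene with 38. Those nearest on the outside were a U6 gene with 29 reads, a U1 gene with 28 and a U6 gene with 26.

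Levels between genes were compared per kilobase of annotated length, as the mean over the 6 libraries of CPM scaled by TMM. SCARNA15 was highest at 3052 CPM per kb, followed by each of 3 U2 copies with identical counts at 2418. The main U5 copies ENSMMUG00000028536 and ENSMMUG00000048730 came next at 1942 and 1915. The highest U4 copy had 113, U4atac 90.9, U11 63.4, U7 62.7, U12 54.4, U6atac 27.7, U6 24.0 and U1 17.5 CPM per kb, each for the highest member of its type. This order is that of single genes. Over all annotated genes of a type, below the threshold too, U6 had 747 reads and U1 479, against 364 for U4atac, 201 for U6atac, 189 for U12 and 138 for U11. These levels describe reads that the library and the counting retained; fragments and whole molecules cannot be told apart in a count.

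**Figure D1:**
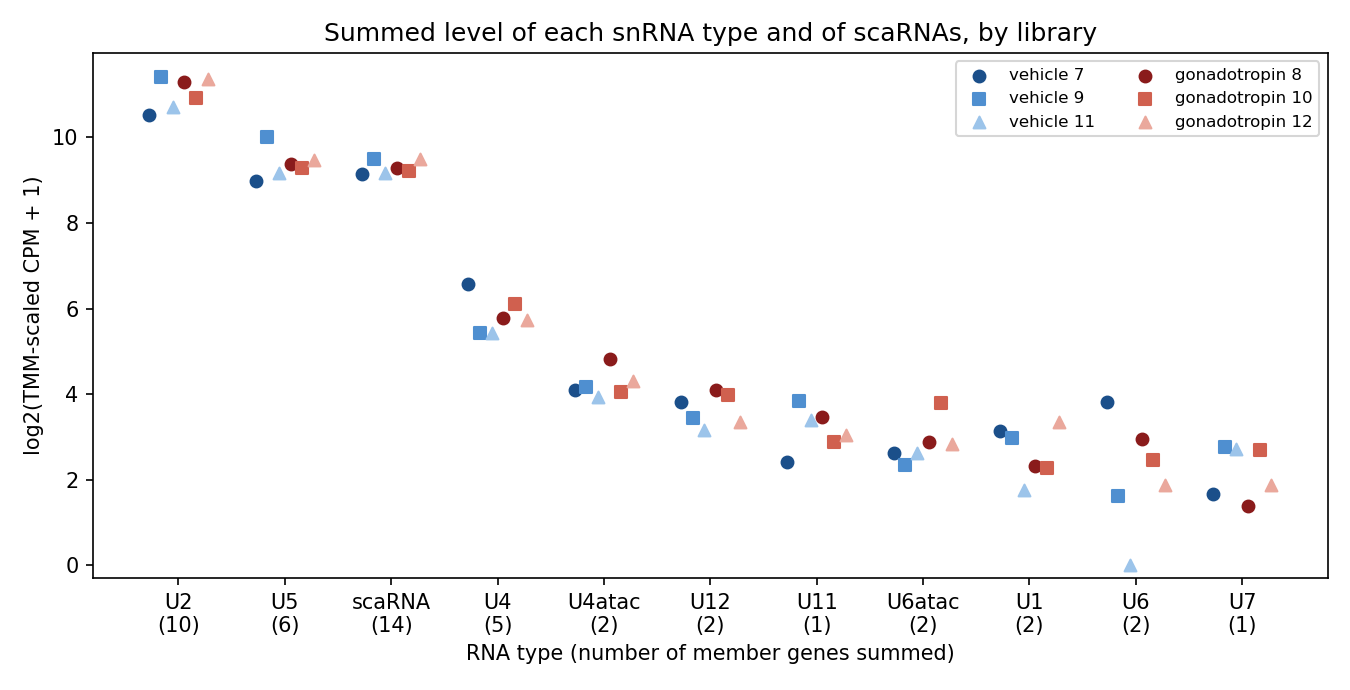
Summed level of the member genes of each snRNA type and of the scaRNAs, as log2(TMM-scaled CPM + 1), with 1 point for each of the 6 libraries (vehicle blue, gonadotropin red). U2, U5 and scaRNAs lie above 500 CPM in every library, U4 between 41.9 and 93.6, and the remaining types at 27.2 or below, including a value of 0 for U6 in vehicle 11.

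No member passed the test of gonadotropin against vehicle. Of the 47 genes, 37 had enough reads to enter the edgeR quasi-likelihood test, which was run over all 717 testable genes with Benjamini-Hochberg adjustment. Of these 37, 0 had an adjusted p under 0.05, against 1 of all 717 (0.139%). At an unadjusted p under 0.05 there were 2 of 37 members (5.41%), against 4.46% of all genes tested. In TMM-scaled CPM the groups did not overlap for 3 of 37 (8.11%), against 8.23% of all genes tested. All these shares thus lay close to the background. The fitted log2 fold change was positive for 20 members and negative for 17, with a median of 0.05, beside 345 positive and 372 negative and a median of -0.02 over all 717 genes. DESeq2 and the exact test of edgeR also called 0 members. They gave 3 and 2 of the 37 members an unadjusted p under 0.05, against 5.30% and 4.74% of all genes tested. The 10 members without a test were both U1, both U6 and both U6atac genes, both SCARNA24 genes, 1 of 2 U12 genes and 1 of 5 U4 genes.

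**Figure D2:**
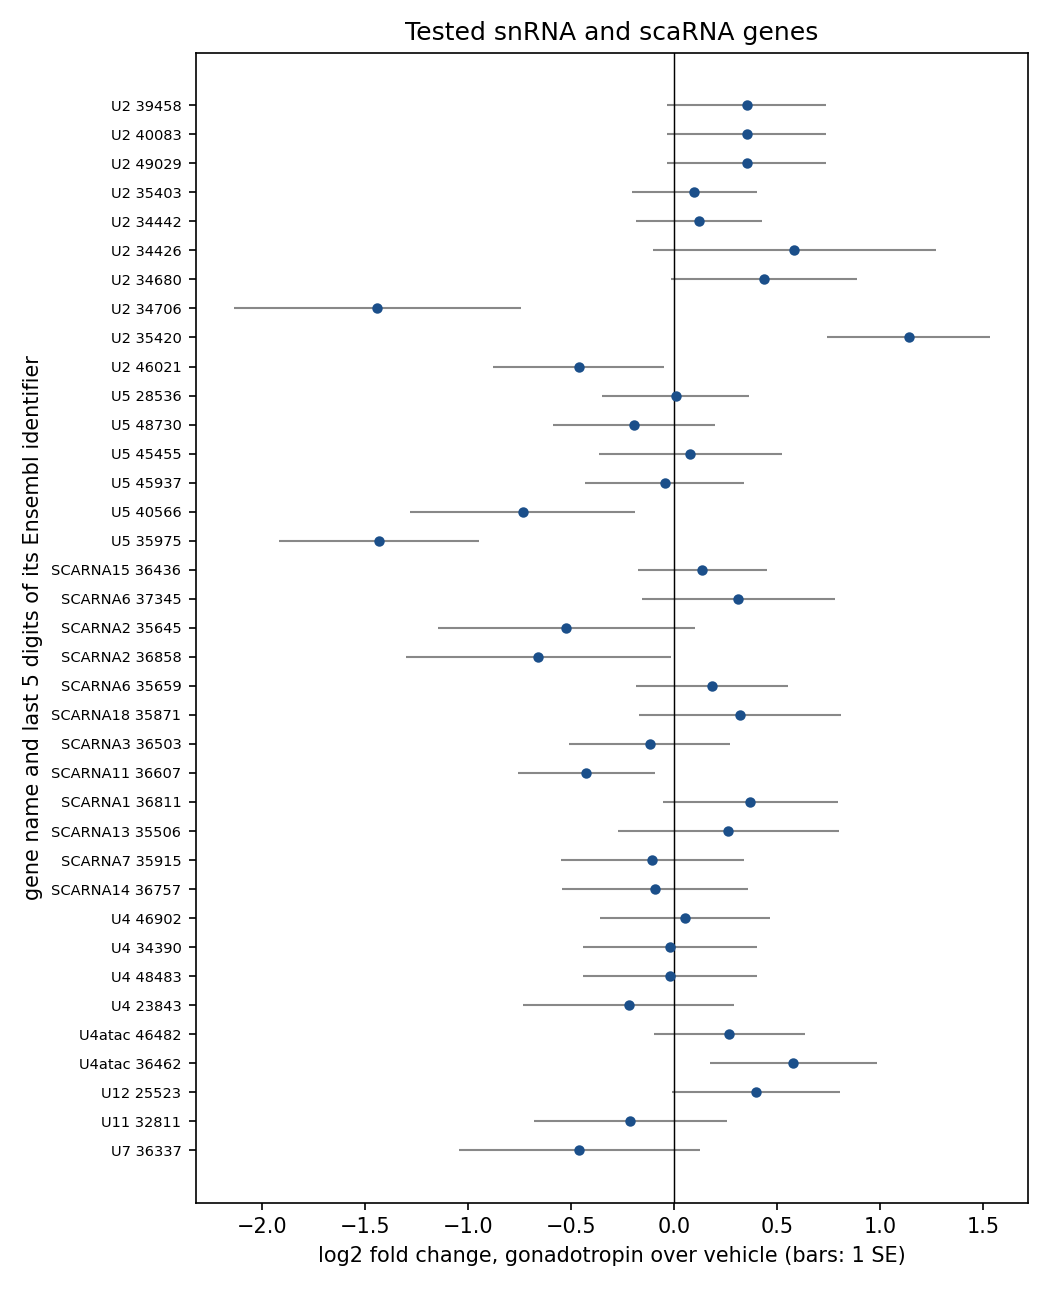
Fitted log2 fold change (gonadotropin over vehicle) with its standard error for the 37 tested member genes, grouped by type; values right of 0 are higher after gonadotropin. The largest values in either direction belong to U2 and U5 copies with few reads, at 1.14, -1.44 and -1.43, and none passed the edgeR quasi-likelihood test after adjustment.

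U2, the snRNA that pairs with the branch point, was the most abundant type, and its summed level did not pass the test. The 10 members summed to 1464, 2706 and 1663 CPM in vehicle 7, 9 and 11, against 2499, 1941 and 2656 CPM in gonadotropin 8, 10 and 12. Vehicle 9 was the highest and vehicle 7 the lowest of all 6, so the vehicle range enclosed all gonadotropin values. For the sum, the log2 fold change was 0.28 (SE 0.35, adjusted p = 0.9996, edgeR quasi-likelihood test with each type as 1 summed feature). Without vehicle 9 it was 0.60, and without vehicle 7 it was 0.13.

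The most abundant U2 copies were 3 with identical counts in every library. They are ENSMMUG00000039458 (chromosome 16, 49015498 to 49015688), ENSMMUG00000049029 (chromosome 16, 49106235 to 49106425) and ENSMMUG00000040083 (scaffold JSUE03199317.1, 381 to 571), in rheMac8 coordinates from the table. Each held 21.5% of the reads of the U2 members, and the sources used here do not state whether the same reads were assigned to all 3. Together they made up 64.5% of those reads if each copy is counted and 37.7% (7437 of 19726) if they are counted once. Each had 281, 592 and 345 CPM in vehicle 7, 9 and 11, against 537, 414 and 603 CPM in gonadotropin 8, 10 and 12. Vehicle 7 was lowest, while vehicle 9 lay among the gonadotropin values. The 3 copies were fitted at a log2 fold change of 0.35 (SE 0.39), and 0.66 without vehicle 9.

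The next U2 copies varied less between animals. ENSMMUG00000035403 on chromosome 14 (11456811 to 11457001) had 280, 354 and 274 CPM in vehicle 7, 9 and 11, against 349, 303 and 319 CPM in gonadotropin 8, 10 and 12. ENSMMUG00000034442 on chromosome 1 had 250, 333 and 252 CPM in the vehicle testes against 328, 282 and 298 CPM in gonadotropin libraries. Both had small fitted values, a log2 fold change of 0.10 (SE 0.30) for the chromosome 14 copy and of 0.12 (SE 0.31) for the chromosome 1 copy. The count of 1 of the identical copies over that of the chromosome 14 copy was 1.00, 1.67 and 1.26 in vehicle 7, 9 and 11 and 1.54, 1.36 and 1.89 in gonadotropin 8, 10 and 12, with overlapping groups. The makeup of U2 reads thus differed between animals of the same group.

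A wider spread was seen for the U2 copies that held 3.52% and 3.16% of the U2 reads. ENSMMUG00000034426 on chromosome 9 had 17.4, 119 and 44.4 CPM in vehicle 7, 9 and 11, against 96.2, 47.3 and 128 CPM in gonadotropin 8, 10 and 12. Its log2 fold change was 0.58 (SE 0.69), moving to 1.50 without vehicle 9 and to 0.18 without vehicle 7. ENSMMUG00000034680 on chromosome X had 41.0, 84.2 and 49.6 CPM in the vehicle testes against 99.8, 48.3 and 88.5 CPM in gonadotropin libraries, which gave a log2 fold change of 0.43 (SE 0.45). In both copies the vehicle and gonadotropin values overlapped.

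ENSMMUG00000035420, a rare U2 copy on chromosome 7 (74113310 to 74113499), was 1 of the 3 tested members whose groups did not overlap. It had 7, 10 and 9 reads in vehicle 7, 9 and 11 and 15, 22 and 24 reads in gonadotropin 8, 10 and 12, or 3.05, 3.41 and 3.60 CPM against 6.01, 7.03 and 9.27 CPM. All 3 gonadotropin values lay above all vehicle values. The log2 fold change was 1.14 (SE 0.39) and did not pass after adjustment (adjusted p = 0.850, edgeR quasi-likelihood test). It lay between 0.95 and 1.28 when each library was left out in turn. This was the member that passed the read filter through the gonadotropin libraries alone, none of its vehicle libraries reaching the cutoff of 3.78 CPM on library totals, so a difference was built into its entry to the test. It held 0.251% of the U2 reads.

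In the other rare U2 copies vehicle 7 was the highest library. ENSMMUG00000034706 on chromosome 15 had 29.2, 7.50 and 5.60 CPM in vehicle 7, 9 and 11, against 7.62, 2.88 and 5.02 CPM in gonadotropin 8, 10 and 12. Only vehicle 7 lay outside the range of the gonadotropin values, and the log2 fold change of -1.44 (SE 0.70) was -0.34 without that library. ENSMMUG00000046021 on chromosome 16 had 8.28, 5.11 and 4.40 CPM in the vehicle testes against 4.41, 4.16 and 4.25 CPM in gonadotropin libraries. Its log2 fold change was -0.46 (SE 0.41), and -0.14 without vehicle 7.

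U5, shared by both spliceosomes, had summed levels of 503, 1025 and 576 CPM in vehicle 7, 9 and 11, against 667, 626 and 707 CPM in gonadotropin 8, 10 and 12. The gonadotropin values lay together inside the vehicle range, which vehicle 9 extended upward. For the U5 sum, the log2 fold change was -0.07 (SE 0.37), moving to 0.31 without vehicle 9. The copies on chromosome 7 that held most reads had the same form. ENSMMUG00000028536 (41978652 to 41978768) had 169, 315 and 196 CPM in the vehicle testes against 200, 223 and 260 CPM in gonadotropin libraries, for a log2 fold change of 0.01 (SE 0.36). ENSMMUG00000048730 (41986256 to 41986371) had 156, 364 and 192 CPM in the vehicle testes against 200, 218 and 204 CPM in gonadotropin libraries, and its log2 fold change was -0.19 (SE 0.39). Vehicle 9 was the highest library for both.

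On chromosome 1 lay the next U5 copies. ENSMMUG00000045455 had 93.2, 260 and 123 CPM in vehicle 7, 9 and 11, against 198, 136 and 168 CPM in gonadotropin 8, 10 and 12, which gave a log2 fold change of 0.08 (SE 0.44). Leaving out vehicle 9 moved it to 0.57 and leaving out vehicle 7 to -0.17. ENSMMUG00000045937 had 49.2, 63.1 and 52.8 CPM in the vehicle testes against 61.0, 36.4 and 62.6 CPM in gonadotropin libraries, for a log2 fold change of -0.05 (SE 0.39).

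Among rare U5 copies, ENSMMUG00000035975 on chromosome 3 (77850907 to 77851044) was the second tested member whose groups did not overlap. It had 16.1, 6.14 and 7.60 CPM in vehicle 7, 9 and 11, against 3.61, 4.16 and 3.09 CPM in gonadotropin 8, 10 and 12. Every gonadotropin value lay below every vehicle value, but vehicle 7 had more than the other vehicle libraries together. The log2 fold change was -1.43 (SE 0.48), which did not pass after adjustment (adjusted p = 0.850, edgeR quasi-likelihood test; 0.449 to 1.00 over the alternatives). Without vehicle 7 it was -0.89. The authors' deposited table gives this gene a log2 fold change of -1.43 and an adjusted p of 0.973. The other rare copy, ENSMMUG00000040566 on chromosome 11, had 22.7, 7.50 and 7.60 CPM in the vehicle testes against 5.61, 6.07 and 10.8 CPM in gonadotropin libraries. Its log2 fold change of -0.74 (SE 0.55) was 0.01 without vehicle 7.

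U4, which carries U6 into the spliceosome, had summed levels of 93.6, 42.0 and 41.9 CPM in vehicle 7, 9 and 11, against 53.7, 68.0 and 52.4 CPM in gonadotropin 8, 10 and 12. Vehicle 7 was the highest of the 6 libraries and vehicle 9 and 11 were the lowest. Its log2 fold change of -0.03 (SE 0.44) became 0.48 without vehicle 7. In TMM-scaled CPM vehicle 7 was the highest library for each U4 copy as well. On library totals, gonadotropin 8 lay slightly above it for ENSMMUG00000046902 and gonadotropin 10 for ENSMMUG00000035002. ENSMMUG00000046902 on chromosome 11 had 23.5, 12.6 and 10.8 CPM in the vehicle testes against 16.0, 18.5 and 13.9 CPM in gonadotropin libraries, and its log2 fold change was 0.05 (SE 0.41). A pair with identical counts, ENSMMUG00000034390 on chromosome 10 and ENSMMUG00000048483 on chromosome 11, had 24.0, 10.9 and 11.6 CPM in the vehicle testes against 14.8, 17.3 and 13.5 CPM in gonadotropin libraries. Its log2 fold change was -0.02 (SE 0.42). ENSMMUG00000023843 on chromosome 20 had 17.9, 5.80 and 6.80 CPM in the vehicle testes against 6.42, 10.9 and 8.50 CPM in gonadotropin libraries, which gave a log2 fold change of -0.22 (SE 0.51).

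U6, the catalytic snRNA, and U1 were near the limit of detection as single genes. The U6 member ENSMMUG00000047682 had 15, 3 and 0 reads in vehicle 7, 9 and 11 and 9, 7 and 4 reads in gonadotropin 8, 10 and 12. The other, ENSMMUG00000045072, had 15, 3 and 0 reads in vehicle and 8, 7 and 3 reads in gonadotropin libraries. Vehicle 7 and vehicle 11 marked the ends of the range for both. Without vehicle 7 they had 23 and 21 reads, under the minimum of 30, so a high value in that library was part of how they were chosen. A count of 0 allows up to 3 reads, by counting error alone. The sum of the pair had a log2 fold change of -0.08 (SE 1.05), which was 2.08 without vehicle 7. With counts so alike, that sum may count some reads more than 1 time. The U6 genes below the threshold held 673 reads together, with 117, 112 and 107 reads in vehicle and 113, 92 and 132 reads in gonadotropin libraries. In these unscaled reads vehicle 7 lay inside the range of the others. With TMM scaling it lay about level with gonadotropin 12 and above the rest.

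The U1 member ENSMMUG00000024318 on chromosome 10 had 5.23, 2.05 and 2.0 CPM in vehicle 7, 9 and 11, against 1.60, 2.56 and 3.86 CPM in gonadotropin 8, 10 and 12. ENSMMUG00000041995 on chromosome 1 had 2.61, 4.77 and 0.400 CPM in the vehicle testes against 2.41, 1.28 and 5.41 CPM in gonadotropin libraries. These U1 genes summed to 5.69 ± 2.89 CPM in vehicle testes against 5.70 ± 3.08 CPM after gonadotropin (SD over 3 libraries in each group), a difference smaller than the spread between animals.

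The minor spliceosomal types had few reads and mostly overlapping groups. U4atac, the minor counterpart of U4, summed to 16.0, 16.9 and 14.4 CPM in vehicle 7, 9 and 11, against 27.2, 15.7 and 18.9 CPM in gonadotropin 8, 10 and 12, for a log2 fold change of 0.38. Its member ENSMMUG00000046482 on chromosome 12 was fitted at a log2 fold change of 0.27 (SE 0.37), and ENSMMUG00000036462 on chromosome 7 at 0.58 (SE 0.40). U12, which pairs with the minor branch point, summed to 13.0, 9.97 and 7.97 CPM in the vehicle testes against 16.0, 14.7 and 9.25 CPM in gonadotropin libraries, and its log2 fold change was 0.37. U11, which recognises the minor 5' splice site, had 4.36, 13.3 and 9.60 CPM in the vehicle testes against 10.0, 6.39 and 7.34 CPM in gonadotropin libraries, so that vehicle 7 and 9 bounded the range. U11 (ENSMMUG00000032811, chromosome 1, 27596991 to 27597124) was fitted at a log2 fold change of -0.21 (SE 0.47), and at 0.12 without vehicle 9.

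U6atac, the minor counterpart of U6, was the only 1 of 11 summed types, scaRNAs included, whose member sums did not overlap between groups. Among single genes, the groups did not overlap for 8.23% of all 717 tested. The U6atac members summed to 5.20, 4.13 and 5.18 CPM in vehicle 7, 9 and 11, against 6.41, 12.8 and 6.17 CPM in gonadotropin 8, 10 and 12. Gonadotropin 10 stood well above the rest, while the other gonadotropin values lay close above the highest vehicle value. The log2 fold change was 0.82 (SE 0.44, adjusted p = 0.9996, edgeR quasi-likelihood test), between 0.38 and 0.97 as each library was left out. As single genes, neither U6atac member had enough reads for the test. Both had 20 reads in gonadotropin 10 and 8 in gonadotropin 12, and the sources do not state whether reads were assigned to both. The sum may therefore count some reads more than 1 time. ENSMMUG00000033778 on chromosome 15 had 3.05, 2.39 and 2.40 CPM in the vehicle testes against 3.61, 6.39 and 3.09 CPM in gonadotropin libraries. ENSMMUG00000034105 on chromosome 14 had 2.18, 1.70 and 2.80 CPM in the vehicle testes against 2.81, 6.39 and 3.09 CPM in gonadotropin libraries. The U6atac genes below the threshold held 92 of the 201 U6atac reads. They had 13 reads in each vehicle library and 17, 30 and 6 reads in gonadotropin 8, 10 and 12. In those genes gonadotropin 12 was the lowest library, so the groups were not separate there. The minor types together made up 1.53% ± 0.336 of spliceosomal snRNA reads in vehicle and 1.62% ± 0.363 in gonadotropin libraries (SD, n = 3 each), a difference within the spread.

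The U7 member, ENSMMUG00000036337 on chromosome 11 (7258923 to 7258984), had 2.18, 5.80 and 5.60 CPM in vehicle 7, 9 and 11, against 1.60, 5.43 and 2.70 CPM in gonadotropin 8, 10 and 12. The groups overlapped, and the log2 fold change was -0.46 (SE 0.59). Its value moved to -1.06 without gonadotropin 10, to -0.75 without vehicle 7 and to between -0.14 and -0.33 without any other library.

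scaRNAs were dominated by SCARNA15, an H/ACA scaRNA also known as ACA45, which held 60.9% of their reads. SCARNA15 (ENSMMUG00000036436, chromosome 7, 61093094 to 61093220) had 410, 338 and 360 CPM in vehicle 7, 9 and 11, against 348, 382 and 488 CPM in gonadotropin 8, 10 and 12. Gonadotropin 12 was the highest library, the other gonadotropin values lay inside the vehicle range, and the log2 fold change was 0.14 (SE 0.31). Summed over the 14 scaRNA genes the level was 565, 717 and 576 CPM in the vehicle testes against 626, 596 and 716 CPM in gonadotropin libraries. For that sum, the log2 fold change was 0.06 (SE 0.31). Of the 12 tested scaRNA genes, 6 had positive and 6 negative fitted values, with a median of 0.02, and 0 passed the test.

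SCARNA11 (ENSMMUG00000036607, chromosome 11, 6818466 to 6818602) was the third tested member whose groups did not overlap. It had 14.4, 14.3 and 14.0 CPM in vehicle 7, 9 and 11, against 11.6, 11.2 and 8.89 CPM in gonadotropin 8, 10 and 12. In TMM-scaled CPM the vehicle values lay within 1 CPM of each other, and all gonadotropin values were below them. This rested on the scaling factors, 0.784 for vehicle 7 and 1.16 for gonadotropin 8. The reads were 33, 42 and 35 in vehicle and 29, 35 and 23 in gonadotropin libraries. On library totals gonadotropin 8 lay above vehicle 7, so the groups overlapped. The log2 fold change was -0.43 (SE 0.33), and the edgeR quasi-likelihood test gave an adjusted p = 0.998. It stayed between -0.49 and -0.32 as each library was left out.

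SCARNA2, which guides 2'-O-methylation of U2, had fitted values whose sign depended on vehicle 9. Its copy on chromosome 1, ENSMMUG00000035645, had 18.7, 97.2 and 33.6 CPM in vehicle 7, 9 and 11, against 48.5, 27.2 and 28.6 CPM in gonadotropin 8, 10 and 12. The copy on the unplaced scaffold KQ736237.1, ENSMMUG00000036858, had 15.7, 82.8 and 25.2 CPM in the vehicle testes against 36.9, 22.4 and 19.3 CPM in gonadotropin libraries. In both, vehicle 9 was highest and vehicle 7 lowest. Their log2 fold changes of -0.52 (SE 0.62) and -0.66 (SE 0.64) became 0.35 and 0.30 without vehicle 9.

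The other scaRNA genes also had overlapping groups. SCARNA6 ENSMMUG00000037345 on chromosome 12 had 20.9, 63.4 and 46.8 CPM in vehicle 7, 9 and 11, against 62.6, 48.0 and 52.6 CPM in gonadotropin 8, 10 and 12, which gave a log2 fold change of 0.31 (SE 0.47). SCARNA18 had 9.15, 33.4 and 22.0 CPM in the vehicle testes against 30.9, 24.9 and 25.1 CPM in gonadotropin libraries, for a log2 fold change of 0.32 (SE 0.49). Vehicle 7 was the lowest library for both. Without it, both fitted values were near 0, at 0.0010 and -0.018. SCARNA13 had 12.8 CPM in gonadotropin 10, against 3.09 to 6.82 CPM in the other libraries, and its log2 fold change of 0.26 was -0.47 without that library. The 5 remaining tested genes, the second SCARNA6 gene, SCARNA3, SCARNA1, SCARNA7 and SCARNA14, had log2 fold changes from -0.12 to 0.37. SCARNA24 on chromosome X, not tested, had 1.74, 3.07 and 3.20 CPM in the vehicle testes against 7.22, 6.07 and 1.55 CPM in gonadotropin libraries.

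**Figure D3:**
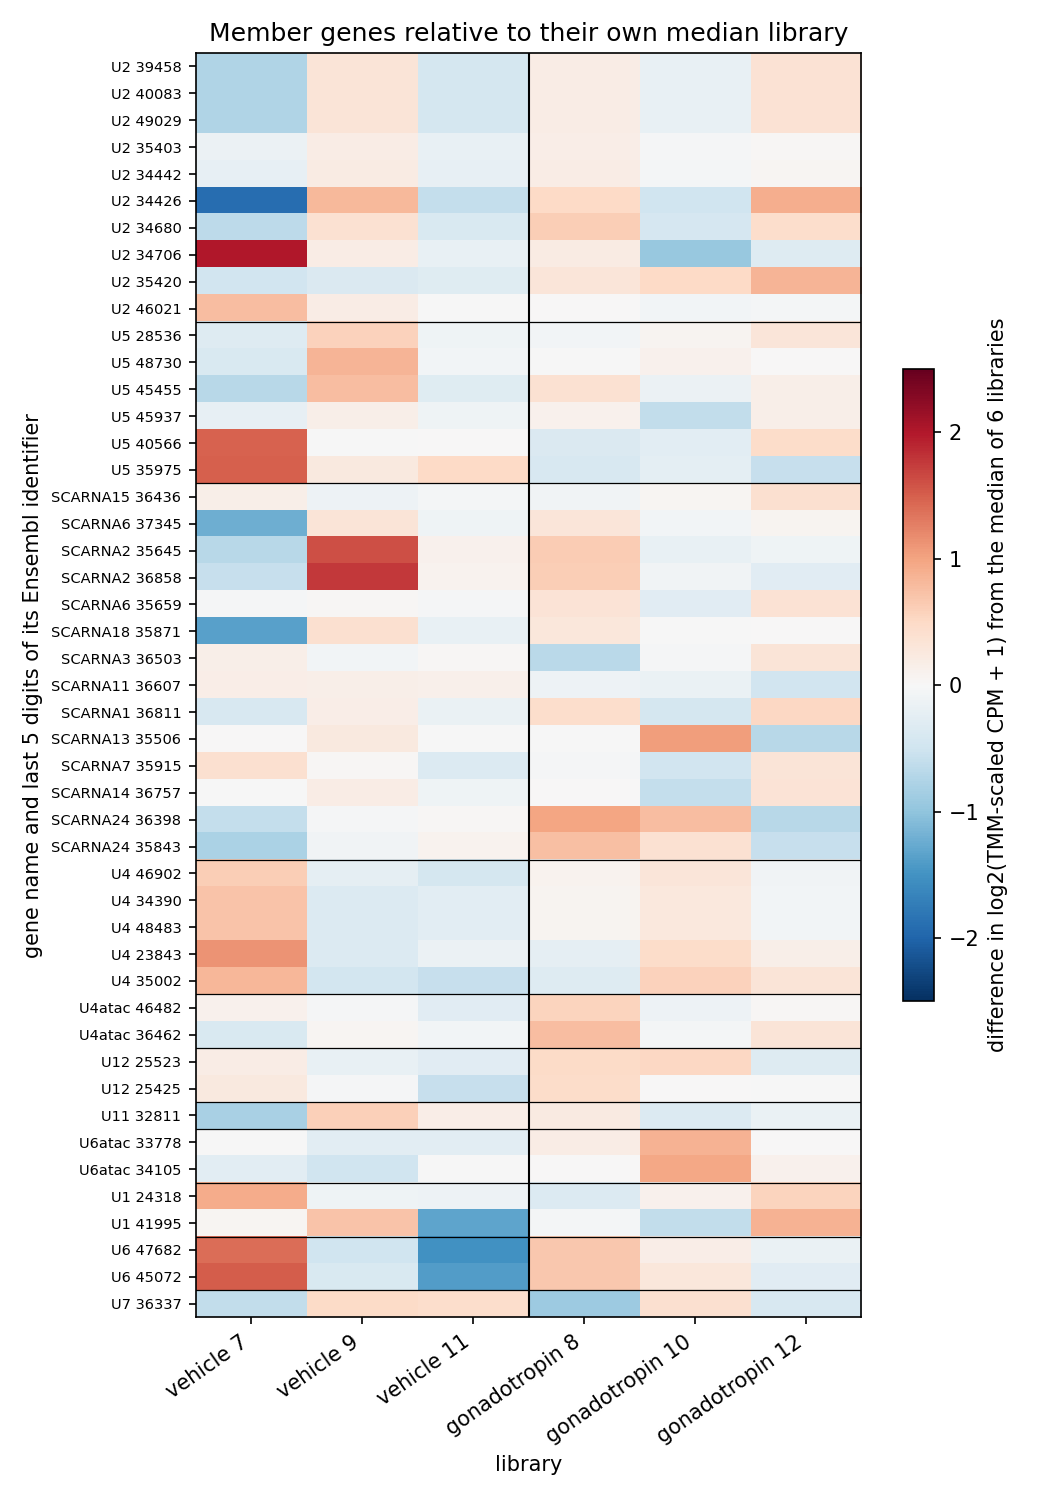
Level of each of the 47 member genes in each library, as the difference in log2(TMM-scaled CPM + 1) from that gene's median over the 6 libraries (red above, blue below), with genes ordered by type. Vehicle 7 is the highest library for 14 members (29.8%, against 23.0% of all tested genes) and the lowest for 17 (36.2%, against 31.0%). Vehicle 11 is the highest for 0 members (against 8.51%).

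The highest and lowest library of each member was set beside the same over all 717 tested genes. Vehicle 7 was the highest library for 14 of 47 members (29.8%, against 23.0% of all tested genes). It was the lowest for 17 (36.2%, against 31.0%), so both shares lay near those of all tested genes. Vehicle 9 was highest for 12 members (25.5%, against 28.7% of all tested genes) and gonadotropin 12 for 11 (23.4%, against 12.6%). Gonadotropin 8 was highest for 6 members (12.8%, against 13.0%), gonadotropin 10 for 4 (8.51%, against 14.2%) and vehicle 11 for 0 (against 8.51%). The 47 members include 10 without a test. The 3 U2 copies with identical counts, counted separately here, were highest in gonadotropin 12. The U6 members, chosen in part through vehicle 7, were highest there. Among U2, U5 and U4, the position of vehicle 7 differed between members. The log2 values that follow use TMM-scaled CPM, in which the factor of 0.784 raises vehicle 7 relative to library totals. Relative to the median of the other 5 libraries, all 5 U4 copies had log2 values of 0.76 to 1.58 in vehicle 7. The 7 U2 copies with more than 3% of the U2 reads lay at -2.47 to -0.19, and the 4 main U5 copies at -0.85 to -0.31. Rare copies did not share that direction: U2 ENSMMUG00000034706 was at 2.38 and ENSMMUG00000046021 at 0.91, and the rare U5 copies ENSMMUG00000035975 and ENSMMUG00000040566 were at 1.96 and 1.59. The rare U2 copy ENSMMUG00000035420, at -0.98, lay with the main copies. The U1 members lay at 1.35 and 0.12, whereas the U1 genes below the threshold, with 389 reads together, had their lowest count in vehicle 7 (43 reads, against 54 to 90). These values describe 1 library and were looked up after its place among the libraries was seen, so they carry no test.

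**Figure D4:**
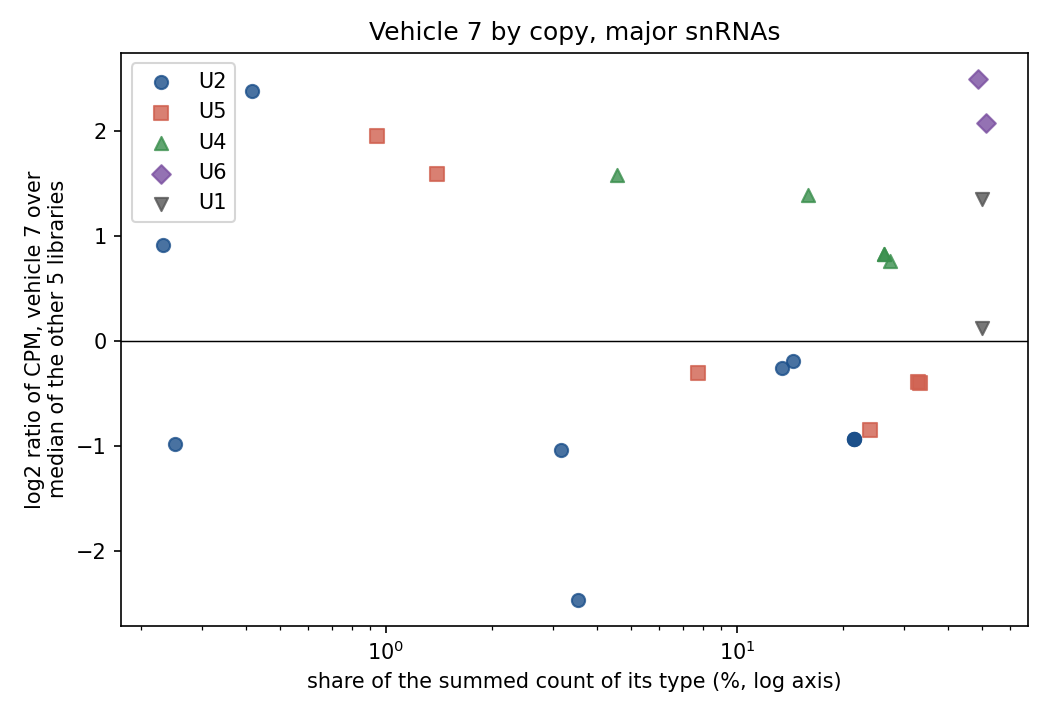
Each U2, U5, U4, U6 and U1 member gene by its share of the reads of its type (percent, log axis) and its log2 level in vehicle 7 relative to the median of the other 5 libraries. Levels are TMM-scaled CPM, which raises vehicle 7 relative to library totals. U2 and U5 copies with over 3% of their type's reads lie below 0, 4 of 5 rarer ones lie above 0, and all U4, U6 and U1 members lie above 0; the U6 members were chosen in part through vehicle 7.

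As a share of all counts, the member snRNAs made up 0.167%, 0.410% and 0.238% in vehicle 7, 9 and 11 and 0.383%, 0.265% and 0.350% in gonadotropin 8, 10 and 12. The means were 0.272% ± 0.125 and 0.333% ± 0.0606 (SD, n = 3 each), and the groups overlapped. The snRNA shares in this paragraph count each identical copy. With identical copies counted once, the means were 0.190% ± 0.0824 and 0.222% ± 0.0374 of all counts, again with overlapping groups. scaRNAs made up 0.0601% ± 0.0162 and 0.0678% ± 0.00799. As a share of counts outside miRNA genes, snRNAs made up 4.82% ± 0.726 in vehicle and 6.05% ± 1.60 in gonadotropin libraries, with overlapping groups. Only gonadotropin 12, at 7.89%, lay above the vehicle libraries. Gonadotropin 8 and 10, at 5.27% and 4.98%, lay inside the vehicle range. In vehicle 7 that share, 5.41%, lay inside the range of the other libraries (4.01% to 7.89%), whereas its share of all counts was the lowest.

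The ratio of U5 to U2 reads, a measure chosen after the values were seen, was 0.344, 0.379 and 0.346 in vehicle 7, 9 and 11 and 0.267, 0.323 and 0.266 in gonadotropin 8, 10 and 12. The gonadotropin ratios were all below the vehicle ratios, and the exact permutation test (two-sided) gave p = 0.1, the smallest that 3 libraries against 3 allow. With copies of identical counts taken once, the ratios were 0.556, 0.678 and 0.591 against 0.468, 0.563 and 0.487, and the groups overlapped (exact permutation p = 0.2). With the largest copy of each type alone they were 0.602, 0.533 and 0.567 against 0.373, 0.539 and 0.431, again overlapping (exact permutation p = 0.2). Of these 3 ways of counting, the groups were separate only where each member gene was counted, identical copies included.

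Other small RNAs of the same table were set beside the members. The H/ACA guides of ribosomal RNA (SNORA genes) had a median log2 fold change of 0.04 over 51 tested genes, 31 positive and 20 negative, with 0 called. C/D box guides (SNORD genes) had a median of -0.30 over 177, of which 39 were positive and 138 negative, with 1 called by the edgeR quasi-likelihood test. Small RNAs made by RNA polymerase III, chosen by name and without any snRNA, had a median of 0.29 over 23, with 17 positive and 6 negative. The members' medians of 0.05 for 25 tested snRNA genes and 0.02 for 12 tested scaRNA genes lay between those of the SNORD and the RNA polymerase III genes. No test between these classes was run. SNORD genes took 1.43% of counts in vehicle 7 and 4.77% in vehicle 9, the same lowest and highest libraries as for the member snRNAs.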

How the data were processed

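The authors deposited raw counts of reads per annotated small RNA gene; the tools named are HTSeq 0.6.1p1, Bowtie 1.1.2, cutadapt 1.9.1 and edgeR, on the build rheMac8, per the submitters' processing notes. The sources used here do not state how multiply mapping reads and strand were handled. The titles name Ion Torrent, whereas the protocol per the labels describes a TruSeq stranded kit and Illumina steps. The authors also deposited log2 fold changes and p-values of an edgeR exact test, quoted only where named; the mature miRNA tables were not used here.

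Of 3083 genes, 717 passed filterByExpr at a minimum count of 10, here a cutoff of 3.78 CPM on library totals. After TMM scaling, gonadotropin was compared with vehicle in edgeR 4.0.16 (R 4.3.3) by its robust quasi-likelihood test. P-values were adjusted over all tested genes by Benjamini and Hochberg's method, at a threshold of 0.05. The biological coefficient of variation was 46.2%. Summed types replaced their members in a second fit of 691 features. Levels are TMM-scaled counts per 1000000 (CPM), shares use raw counts, and principal components used log2(CPM + 1). The approximate standard error was taken as |log2 fold change| over the root of the F statistic. Reads carry no molecular identifiers, so a floor of 3 reads covers counting error only. The fit was tested on simulated data.

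Alternatives were library totals, upper-quartile scaling, DESeq2 1.42.0, limma 3.58.1 (voom), the edgeR exact test, no filter, age as a covariate, pairs of similar age as a block, a member minimum of 100 reads, identical copies once, counts outside miRNA genes, and leaving out each library. Summing only the largest copy, or identical copies once, was added after the values were seen. The rule for named genes took members with an unadjusted p under 0.05, the highest and the smallest-p member of each type, tested scaRNAs, members with 1 library at least 8 times the median of the others, and identical copies; other members are given for completeness. The members and lists were chosen with earlier results of these data known. Among members, 5 have counts identical to another, so values of such copies are uncertain. No sequence was used here.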

Additional observations from a re-analysis of the deposited data

How the results depend on the processing

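Depth limits the rare types: the members of U1, U6, U6atac and U7 had at most 109 reads per type, and with 3 animals against 3 and a biological coefficient of variation of 46.2% a p that missed the threshold does not show that levels were alike. In every alternative 0 members passed. Over all small RNA genes, 1 passed with the edgeR quasi-likelihood test, 3 with DESeq2, 3 without the filter, 3 with the edgeR exact test, 0 with limma voom and 0 with pairs of similar age as a block, and 0 to 1 as each library was left out. No paired analysis by replicate number was possible because the animals of the groups share no number. Of 25 named tested genes, 13 kept their direction in all 14 alternatives each, and 12 reversed in at least 1. The 13 include the 3 U2 copies with identical counts, which amount to 1 set of values.

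Summed types near 0 changed sign. With library totals the log2 fold change was 0.14 for U1, 0.17 for U4, 0.014 for U5 and 0.22 for U6. With voom it was 0.031 for U1, 0.082 for U4 and 1.33 for U6. With age as a covariate it was 0.028 for U1, 0.14 for U4 and 0.74 for U6. With age pairs as a block it was 0.076 for U4, 0.00029 for U5 and 0.64 for U6. Without the filter U1 was at 0.012, and with the largest copy alone U4 was at 0.051 and U5 at 0.00098. As each library was left out, U1 ran from -0.61 to 0.30, U11 from -0.53 to 0.18, U4 from -0.22 to 0.48, U5 from -0.24 to 0.31, U6 from -0.65 to 2.08, the scaRNA sum from -0.083 to 0.18 and the median of the tested scaRNAs from -0.019 to 0.29. The cause was not tested.

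Among single genes, U4 ENSMMUG00000046902 was at -0.00027 with upper-quartile scaling, U5 ENSMMUG00000028536 at -0.0077 with DESeq2 and -0.0013 with age, U4 ENSMMUG00000023843 at 0.0030 with age, and SCARNA7 and SCARNA14 at 0.050 and 0.033 with library totals. As each library was left out, the values ran from -0.52 to 0.12 for U11, from -0.17 to 0.48 for U4 ENSMMUG00000046902, from -0.60 to 0.47 for U4 ENSMMUG00000023843, from -0.14 to 0.25 for U5 ENSMMUG00000028536, from -0.019 to 0.25 for SCARNA15, from -0.88 to 0.35 and from -1.02 to 0.30 for SCARNA2, from -0.018 to 0.74 for SCARNA18, from -0.38 to 0.13 for SCARNA3, from -0.47 to 0.62 for SCARNA13, from -0.37 to 0.15 for SCARNA7 and from -0.38 to 0.18 for SCARNA14.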

Other observations

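Guide RNAs named for U2 and U6 but annotated as snoRNAs were looked up after the values above were seen. The snoU2-30 gene ENSMMUG00000028064 on chromosome 14 (86364976 to 86365045) had 184, 387 and 235 CPM in vehicle 7, 9 and 11, against 223, 278 and 181 CPM in gonadotropin 8, 10 and 12. The snoU2_19 gene ENSMMUG00000027434 beside it (86364717 to 86364796) had 31.8, 86.9 and 74.0 CPM in the vehicle testes against 154, 31.0 and 60.3 CPM in gonadotropin libraries. The neighbours differed in their highest library, vehicle 9 for the first and gonadotropin 8 for the second. Their log2 fold changes were -0.24 (SE 0.39) and 0.35 (SE 0.64). The same pair of names on chromosome X had -0.69 (SE 0.55) for snoU2-30 and 0.58 (SE 0.54) for snoU2_19. None of these genes passed (adjusted p = 0.998 for each, edgeR quasi-likelihood test). The snoU6-53 genes on chromosome 7 had log2 fold changes of 0.23 and 0.0051, and snoU85 of 0.71 (SE 0.45), also with an adjusted p of 0.998 in the edgeR quasi-likelihood test.

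snRNA genes below the threshold of 30 reads held few reads per gene but cover most annotated copies. The U2 genes among them had 56, 16 and 24 reads together in vehicle 7, 9 and 11 and 12, 22 and 14 reads in gonadotropin 8, 10 and 12. Vehicle 7 was the highest library there, while it was the lowest for the summed U2 members. For U4 they had 27, 14 and 12 reads in vehicle and 15, 7 and 5 reads in gonadotropin libraries, again highest in vehicle 7. For U1 they had 43, 67 and 54 reads in vehicle and 71, 64 and 90 reads in gonadotropin libraries, with vehicle 7 lowest. These sums were chosen after the values were seen and carry no test.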
